A study of Rattus norvegicus with 14 samples.

Results

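The granins and the enzymes that process prohormones were followed through rat hippocampus as 8 of the 22601 genes in the deposited tables. They were chosen by symbol: the granin family genes Vgf, Scg2, Scg3, Chga and Chgb, the prohormone convertases Pcsk1 and Pcsk2, and the carboxypeptidase Cpe. All 8 were present in all 14 libraries and passed the filter on low values. RNA sequencing had been done on hippocampus of wild type Wistar rats of 180 to 220 g. The control group received vehicle (n = 4), the PTZ group received the convulsant pentylenetetrazole and vehicle (n = 5), and the PTZ+Q808 group received PTZ and Q808 (n = 5). PTZ blocks GABA-A receptors and is a standard agent for evoking seizures, and Q808 is known here by its code name only. The sources used here do not give dose, sampling time, sex or the order of the treatments. The design states that rats were allocated to groups at random, but no label ties a library to an animal, so p-values measure the spread between these libraries.

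Neuropeptides and some growth factors are made as large precursors and packed into dense core vesicles, which neurons release on sustained firing. Granins are acidic proteins that gather in the same vesicles, help to form them and are themselves cut into peptides. The convertases PC1/3 (from Pcsk1) and PC2 (from Pcsk2) cut precursors after pairs of basic residues, and carboxypeptidase E then trims the basic residues left at the ends.

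Vgf and Scg2 are known for promoters that hold a cAMP response element (CRE), the site at which CREB binds in activity-dependent transcription, so the stretches around this motif are shown first. RefSeq promoter windows (build GRCr8, 300 bases, from 250 before to 50 after each start) were found for 6 of the 8 genes, not for Chga and Pcsk1. Both strands were searched for the CRE, TGACGTCA, and for the core site, TGACG, which also lies inside the full site on each strand. The 5 windows with a match are given as 30 bases in the direction of transcription, with the match in capitals.

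Vgf, full site: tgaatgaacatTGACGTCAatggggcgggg

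Scg2, full site: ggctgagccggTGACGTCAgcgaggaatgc

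Scg3, core site: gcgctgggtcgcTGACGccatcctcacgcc

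Pcsk2, core site on the other strand: ctggcgggcgcgCGTCAcccgggctggcgc

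Cpe, core site: ccatttggctttTGACGtgggtctgagcca

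The Vgf stretch is chr12:25277092-25277121 (minus strand), and its CRE runs from base -90 to base -83 relative to the listed start. The Scg2 stretch is chr9:88256971-88257000 (minus strand), with the CRE from base -123 to base -116. For both genes the promoter window lies within the interval that RefSeq gives the gene, so the listed start is not the most upstream one. The Scg3 stretch is chr8:85322536-85322565 (minus strand), that of Pcsk2 is chr3:151333869-151333898 (plus strand) and that of Cpe is chr16:29796522-29796551 (plus strand). The full site was present in 1.83% of 33469 promoter windows of the same length and the core site in 21.2%. The window of Chgb held neither. The EGR motif GCGNGGGCG was present in the windows of Vgf (1 match) and Pcsk2 (3 matches), against 4.98% of all windows, and the AP-1 motif TGANTCA in none of the 6, against 7.33%. These matches describe the letters only.

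Levels are given in FPKM, fragments scaled by transcript length and by library size, so that levels can be set side by side between genes. Cpe was the highest, with a mean of 954 FPKM over the 14 libraries, above 99.8% of the 12744 genes tested. Chgb followed at 212 FPKM and Scg3 at 157 FPKM, and Chgb was above Scg3 in each library. Scg2 (122 FPKM), Chga (102 FPKM) and Pcsk2 (97.4 FPKM) had overlapping ranges. Vgf averaged 61.5 FPKM, and Pcsk1 averaged 6.93 FPKM, above 40.4% of genes. The convertases thus differed widely in level, with Pcsk2 at 9.08 to 18.8 times the level of Pcsk1 in the same library.

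The genes also differed in how much they varied within a group. The within-group SD of Vgf on the log2 scale was larger than that of 94.7% of genes tested, that of Pcsk1 larger than 89.1% and that of Scg2 larger than 81.6%. Scg3 and Chga were among the steadier genes, with an SD larger than 11.8% and 13.6% of genes. The lowest number of reads behind a value, recovered from the steps between FPKM values, was 425 (Pcsk1), and the highest was 38350 (Cpe). Counting error alone was 4.85% (SD) at the lowest Pcsk1 value and 2.14% at the lowest Vgf value, against a spread within the PTZ group of 32.9% and 40.6%. These counting errors do not cover duplicate molecules from amplification. The spread of Vgf followed the Y-linked split described below: it was 41.2 to 55.9 FPKM in the 8 libraries with those transcripts and 64.8 to 106 FPKM in the 6 without, with no overlap. Pcsk1 (4.91 to 8.43 against 5.85 to 10.6 FPKM) and Scg2 (102 to 132 against 102 to 179 FPKM) overlapped between these classes.

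**Figure D1:**
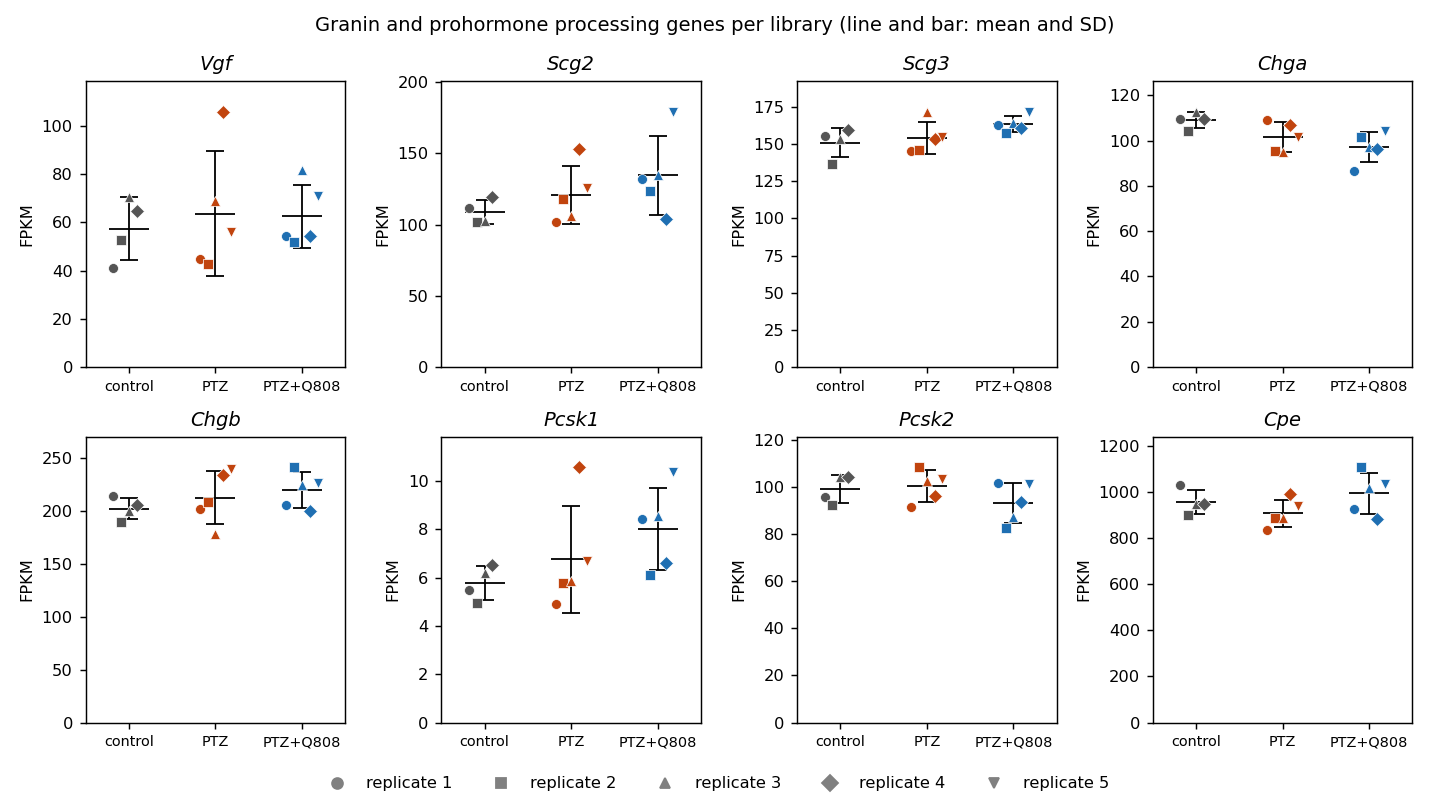
FPKM (y axis, from 0) of each gene in the control, PTZ and PTZ+Q808 libraries (x axis); each symbol is a library, its shape the replicate number, and lines and bars are group means and SDs. Vgf, Scg2 and Pcsk1 are widely spread in the PTZ and PTZ+Q808 groups, and Chga lies at 104.1 FPKM or below in all PTZ+Q808 libraries, just under the lowest control at 104.3.

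The reads recovered per library numbered 15332472 to 18544147. PTZ+Q808 replicate 3 held pituitary transcripts: the mean log2(FPKM + 1) of 13 pituitary markers was 2.30 there and at most 0.65 elsewhere, with Prl at 395 FPKM and Gh1 at 206 FPKM. Control replicate 2 held striatal transcripts, with a mean of 5.09 over 10 markers against at most 2.42 elsewhere. It was also highest in the mean of 6 thalamic markers (3.65, at most 2.89 elsewhere) and in Trh (8.08 FPKM, at most 1.23 elsewhere). Pituitary and striatum both contain peptide-secreting cells, so a log2 change in 1 of the 3 pairwise comparisons that turns or moves by over 1.5 times without either library is given below. Of 10 hypothalamic markers, Avp (7.30 and 8.25 FPKM) and Oxt (4.21 and 7.65 FPKM) stood out in PTZ+Q808 replicates 3 and 4. Elsewhere Avp was at most 2.79 FPKM and Oxt at most 0.626 FPKM. The mean log2 value of the 10 was 0.56 to 0.95 in control, 0.44 to 0.63 in PTZ and 0.42 to 1.02 in PTZ+Q808. The part of hypothalamic tissue was not tested. Choroid plexus transcripts differed as well, with the marker Ttr at 54.5 to 7125 FPKM, lowest in control replicate 3, PTZ replicate 2 and PTZ+Q808 replicate 1. Over the 10 PTZ and PTZ+Q808 libraries the mean of 11 such markers had r = -0.67 with Pcsk2 and 0.40 with Chga. With the other members r was -0.40 to 0.20, and the part of this tissue was not tested. The Y-linked transcripts Ddx3, Eif2s3y and Kdm5d were at 5.75 to 33.4 FPKM in 8 libraries (control replicates 1 and 2, PTZ replicates 1, 2 and 5, PTZ+Q808 replicates 1, 2 and 4) and at most 0.549 FPKM in the other 6. Values are given beside those results that this split moves with. In bulk tissue, fewer cells of a type and less RNA per cell cannot be told apart.

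No granin or processing gene was called in PTZ against control. Genes were called at a limma adjusted p under 0.05 over all 12744 genes tested, a rule that called 0.0314% of genes (4 genes) in this comparison, and 0 of 8 members had a p under 0.05 before adjustment, against 8.11% of genes. Log2 changes of the 8 genes ran from -0.10 (Chga) to 0.16 (Pcsk1). PTZ replicate 4 stood highest of the PTZ libraries for Vgf, Scg2 and Pcsk1. Without it the log2 change of Pcsk1 was 0.00 in place of 0.16, that of Scg2 was 0.05 in place of 0.14 and that of Vgf was -0.11 in place of 0.09. Without control replicate 2, the library with striatal transcripts, it was 0.10 for Pcsk1, 0.03 for Chgb in place of 0.06, -0.02 for Scg3 in place of 0.03 and -0.02 for Pcsk2 in place of 0.01.

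In PTZ+Q808 against PTZ, the comparison that addresses Q808 itself, 0 of 8 members were called, and limma called 0% of all genes, as did voom on the recovered reads. Before adjustment 783 genes (6.14%) and 0 members had a p under 0.05. Log2 changes ran from -0.11 (Pcsk2) to 0.24 (Pcsk1), and the smallest p among the members was that of Cpe (log2 change 0.13 ± 0.07 SE, 95% interval -0.02 to 0.28, limma adjusted p = 0.828). The intervals differed in width: that of Vgf ran from -0.45 to 0.52 and that of Scg3 from -0.03 to 0.20. A change in Vgf of up to 1.43-fold upward therefore lies within its interval, while for Scg3 the upper limit is 1.15-fold.

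In PTZ+Q808 against control, 0 of 8 members were called, where limma called 2.87% of all genes (366 genes). Before adjustment, Chga and Pcsk1 had a p under 0.05, 2 of 8 against 20.7% of all genes. This comparison and PTZ against control share the control libraries. The comparison of the mean of PTZ and PTZ+Q808 with control likewise called 0 members and 0.62% of all genes, and before adjustment 1 member, Chga, against 17.1% of genes.

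**Figure D2:**
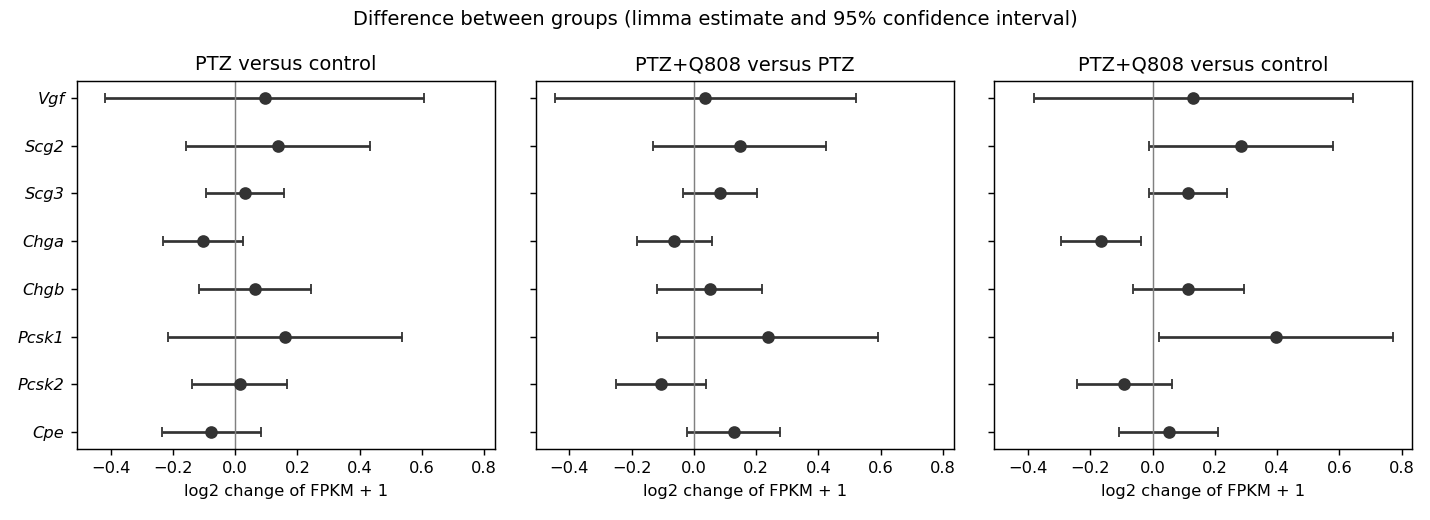
Log2 change of FPKM + 1 (x axis) of each gene (y axis) in 3 comparisons; points are limma estimates and bars 95% confidence intervals. The intervals of Chga (-0.29 to -0.04) and Pcsk1 (0.02 to 0.77) in PTZ+Q808 against control leave out 0 before adjustment, and those of Vgf are the widest.

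Among the granins, Vgf encodes a precursor of several secreted peptides. It was 41.2, 52.9, 70.7 and 64.8 FPKM in control replicates 1 to 4. In PTZ replicates 1 to 5 it was 44.9, 42.7, 68.8, 106 and 55.9 FPKM, and in PTZ+Q808 replicates 1 to 5 it was 54.2, 51.9, 81.7, 54.4 and 71.0 FPKM. The 3 groups overlapped throughout, and 1 PTZ and 2 PTZ+Q808 libraries lay above the highest control. The log2 change was 0.09 ± 0.24 (SE) in PTZ against control (limma adjusted p = 0.942) and 0.13 ± 0.24 in PTZ+Q808 against control (adjusted p = 0.807). Leaving out control replicate 1 turned the first to -0.05 and the second to -0.02, so that no direction can be given for Vgf. Without PTZ+Q808 replicate 3, the library with pituitary transcripts, the change was 0.03 in PTZ+Q808 against control, and -0.06 in place of 0.04 in PTZ+Q808 against PTZ. In each group the libraries without Y-linked transcripts, replicates 3 and 4 of control and PTZ and replicates 3 and 5 of PTZ+Q808, had the highest Vgf. With a term for Y-linked transcripts in the fit the log2 change was 0.16 in PTZ against control (limma adjusted p = 0.720) and 0.19 in PTZ+Q808 against control (adjusted p = 0.402). The part of the split in the level of Vgf was not tested.

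Scg2 encodes secretogranin II, the precursor of the peptide secretoneurin. Its control values were 112, 102, 102 and 119 FPKM. In PTZ it was 102, 118, 106, 153 and 126 FPKM, and in PTZ+Q808 it was 132, 124, 135, 104 and 179 FPKM. Above the highest control were 2 of 5 PTZ libraries and 4 of 5 PTZ+Q808 libraries, while PTZ+Q808 replicate 4 lay among the controls. The log2 change in PTZ+Q808 against control was 0.28 ± 0.14 (SE), with a 95% interval of -0.01 to 0.58 and a limma adjusted p of 0.257, and did not pass. PTZ+Q808 replicate 5 carried part of it, since without that library it was 0.18.

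Scg3 encodes secretogranin III, which binds chromogranin A and the vesicle membrane. It was 155, 137, 153 and 159 FPKM in control, and 146, 146, 172, 154 and 155 FPKM in PTZ. In PTZ+Q808 it was 163, 158, 164, 161 and 172 FPKM, the most even set of the 8 genes with a coefficient of variation of 3.20%. Above the highest control were 4 of 5 PTZ+Q808 libraries, by a small margin. The log2 change against control was 0.12 ± 0.06 (SE; 95% interval -0.01 to 0.24, limma adjusted p = 0.282), and without control replicate 2, the lowest library, it was 0.07.

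Chga encodes chromogranin A, which takes part in forming dense core vesicles and is cut into peptides such as catestatin. It was the 1 gene of the 8 whose PTZ+Q808 and control values did not overlap, as in 8.91% of all genes tested. Control values were 109.5, 104.3, 113 and 109.7 FPKM. In PTZ it was 109.0, 95.3, 94.8, 107 and 102 FPKM, with 3 of 5 libraries below the lowest control. In PTZ+Q808 it was 86.7, 102, 97.4, 96.3 and 104.1 FPKM, and the highest of these lay just below the lowest control. The log2 change against control was -0.17 ± 0.06 (SE), a ratio of 0.891, with an unadjusted p of 0.0147 and a limma adjusted p of 0.136. It was negative under each of 26 alternatives (-0.20 to -0.11, limma adjusted p from 0.0491 to 0.406), and passed under 1, in which libraries were weighted by their own spread. Some alternatives could not alter this log2 change, among them leaving out a PTZ library or changing the filter.

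Chgb encodes chromogranin B, a related granin. Its values were 214, 189, 199.6 and 205 FPKM in control, 202, 208, 178, 234 and 239 FPKM in PTZ, and 205, 241, 224, 199 and 226 FPKM in PTZ+Q808. The groups overlapped, and 2 PTZ and 3 PTZ+Q808 libraries exceeded the highest control. The log2 change in PTZ+Q808 against control was 0.11 ± 0.08 (SE; limma adjusted p = 0.465), opposite in sign to that of Chga. The ratio of Chgb to Chga FPKM, chosen after the values had been seen and given without a test, was 1.77 to 1.95 in control, 1.85 to 2.35 in PTZ and 2.07 to 2.37 in PTZ+Q808.

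Pcsk1, the convertase whose transcript is known to respond to neuronal activity, had the lowest level and the largest log2 change of the 8 genes in PTZ+Q808 against control. It was 5.47, 4.93, 6.19 and 6.53 FPKM in control. In PTZ it was 4.91, 5.76, 5.85, 10.6 and 6.69 FPKM, and in PTZ+Q808 it was 8.43, 6.13, 8.56, 6.59 and 10.4 FPKM. Above the highest control were 2 of 5 PTZ and 4 of 5 PTZ+Q808 libraries, 1 of them (6.59 FPKM) barely. The log2 change in PTZ+Q808 against control was 0.40 ± 0.18 (SE; 95% interval 0.02 to 0.77), a ratio of 1.32, with an unadjusted p of 0.0401 and a limma adjusted p of 0.219, and did not pass. Under the alternatives it was 0.31 to 0.48 (limma adjusted p from 0.0870 to 0.490). Without PTZ+Q808 replicate 3, the library with pituitary transcripts, it was 0.37.

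Pcsk2, the convertase that needs the chaperone 7B2 (Scg5) to mature, did not move with Pcsk1. It was 95.7, 92.4, 104.2 and 104.2 FPKM in control, 91.2, 108, 102, 95.9 and 103 FPKM in PTZ, and 102, 82.5, 87.4, 93.3 and 101 FPKM in PTZ+Q808. The groups overlapped, with 2 PTZ+Q808 libraries below the lowest control. The log2 change in PTZ+Q808 against control was -0.09 ± 0.07 (SE; 95% interval -0.24 to 0.06, limma adjusted p = 0.505). The ratio of Pcsk2 to Pcsk1 FPKM, also chosen after the values had been seen and untested, was 16.0 to 18.7 in control, 9.08 to 18.8 in PTZ and 9.75 to 14.2 in PTZ+Q808. All 5 PTZ+Q808 libraries lay below the lowest control in this ratio, as did PTZ replicates 4 and 5. How many ratios of other genes separate control from PTZ+Q808 was not computed.

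**Figure D3:**
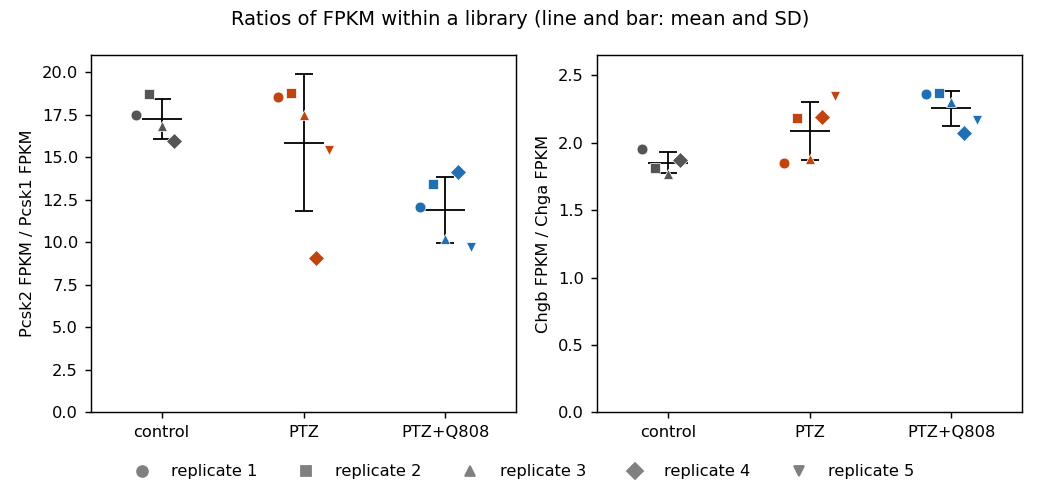
Ratio of Pcsk2 to Pcsk1 FPKM (left y axis) and of Chgb to Chga FPKM (right y axis) per library in each group (x axis); symbols are libraries, lines and bars group means and SDs. Control and PTZ+Q808 libraries do not overlap in either ratio (16.0 or more against 14.2 or less, and 1.95 or less against 2.07 or more), and PTZ libraries span both. Both ratios were chosen after the values had been seen. Of single genes, 8.91% do not overlap between these groups, Chga among them, and the share among ratios was not computed.

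Cpe, whose product trims peptide ends, was the most abundant of the 8. It was 1029.9, 901, 950.1 and 951 FPKM in control and 837, 888, 889, 991 and 939 FPKM in PTZ. In PTZ+Q808 it was 926, 1109, 1020.0, 882 and 1037 FPKM. The groups overlapped, with 3 of 5 PTZ libraries below the lowest control and 2 of 5 PTZ+Q808 libraries above the highest. The log2 change in PTZ+Q808 against control was 0.05 ± 0.07 (SE; 95% interval -0.11 to 0.21, limma adjusted p = 0.744), and 0.02 without control replicate 2.

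The PTZ and PTZ+Q808 libraries differed among themselves in Fos, a gene switched on within minutes of neuronal firing, from 27.0 to 175 FPKM against 11.2 to 23.4 FPKM in control. The widest step in this order was 0.83 of a total range of 2.65 on the log2 scale. Over these 10 libraries the correlation with Fos was r = 0.73 for Vgf (Spearman rho = 0.60), 0.69 for Pcsk1 (rho = 0.64) and 0.62 for Scg2 (rho = 0.71). The unadjusted permutation p of r was 0.0169 for Vgf, 0.0330 for Pcsk1 and 0.0573 for Scg2, and that of rho was 0.0737, 0.0549 and 0.0270. None passed: adjusted over these 8 relations the smallest permutation p was 0.132 for r and 0.197 for rho. For r adjusted over all 12743 genes, the smallest permutation p among the 8 members was 0.402. An adjusted permutation p under 0.05 was reached by 0.11% of all genes. The r of Vgf exceeded that of 98.4% of genes, that of Pcsk1 98.0% and that of Scg2 96.6%, where the median gene had r = -0.08. A positive r with an unadjusted p under 0.05 was found for Vgf and Pcsk1, 2 of 8 members, and for 3.08% of all genes.

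The other 5 genes had r from -0.03 to 0.44, with Chga (-0.01) and Chgb (-0.03) closest to 0. Without PTZ+Q808 replicates 2 and 4, the libraries farthest from the median of Fos, r was 0.78 for Vgf, 0.74 for Pcsk1 and 0.56 for Scg2. The same omission gave 0.62 for Scg3, 0.58 for Cpe, -0.38 for Pcsk2, -0.06 for Chga and -0.01 for Chgb. Scg3 and Cpe then lay above Scg2, so the order of the members depended on these libraries. With each value centred on its group mean, r was 0.73 for Vgf, 0.74 for Pcsk1 and 0.64 for Scg2.

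The Y-linked split also ran through this order. Fos was 113 to 175 FPKM in the 4 exposed libraries without Y-linked transcripts and 27.0 to 127 FPKM in the 6 with them. Within those 6 libraries r with Fos was -0.04 for Vgf (rho = -0.37, exact permutation p = 0.942 and 0.497), 0.41 for Pcsk1 (rho = 0.03, exact permutation p = 0.394 and 1) and 0.41 for Scg2 (rho = 0.26, exact permutation p = 0.449 and 0.658). Adjusted over the 8 members, the smallest exact permutation p was 0.942 for r and 1 for rho. Leaving out the 2 of these libraries farthest from the median of Fos gave r = -0.58, -0.62 and 0.85, over too few libraries to be read. The 4 libraries without Y-linked transcripts were likewise too few, and no r is given for them. With each value centred on the mean of its class, r over the 10 libraries was 0.15 for Vgf, 0.43 for Pcsk1 and 0.37 for Scg2. The r of Vgf, Pcsk1 and Scg2 with Fos was smaller in the 6 libraries with Y-linked transcripts, and after centring, than over all 10. In the class without them (PTZ replicate 3, PTZ+Q808 replicates 3 and 5, PTZ replicate 4) Fos was 113, 126, 142 and 175 FPKM. Vgf in the same libraries was 68.8, 81.7, 71.0 and 106 FPKM. So few libraries per class cannot show whether a relation with Fos is absent within it.

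Neuronal markers were measured alongside. The mean log2 value of 11 of them, among them Slc17a7 of glutamatergic and Gad1 and Gad2 of GABAergic neurons, all at 1 FPKM or more, ran from 7.08 to 7.27 in control, 7.18 to 7.31 in PTZ and 7.21 to 7.29 in PTZ+Q808. Over the same 10 libraries that mean had r = 0.57 with Fos, 0.61 with Vgf, 0.86 with Scg2 and 0.82 with Pcsk1. Its part in these relations was not tested. The mean of 8 microglial markers, all detected, ran from 4.03 to 4.37 in control, 4.10 to 4.29 in PTZ and 4.07 to 4.52 in PTZ+Q808. It had r = 0.70 with Fos, 0.70 with Vgf, 0.80 with Scg2 and 0.74 with Pcsk1. The mean of 7 oligodendrocyte markers had r = -0.82 with Fos, -0.52 with Vgf, -0.42 with Scg2 and -0.52 with Pcsk1. Their parts were not tested either.

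**Figure D4:**
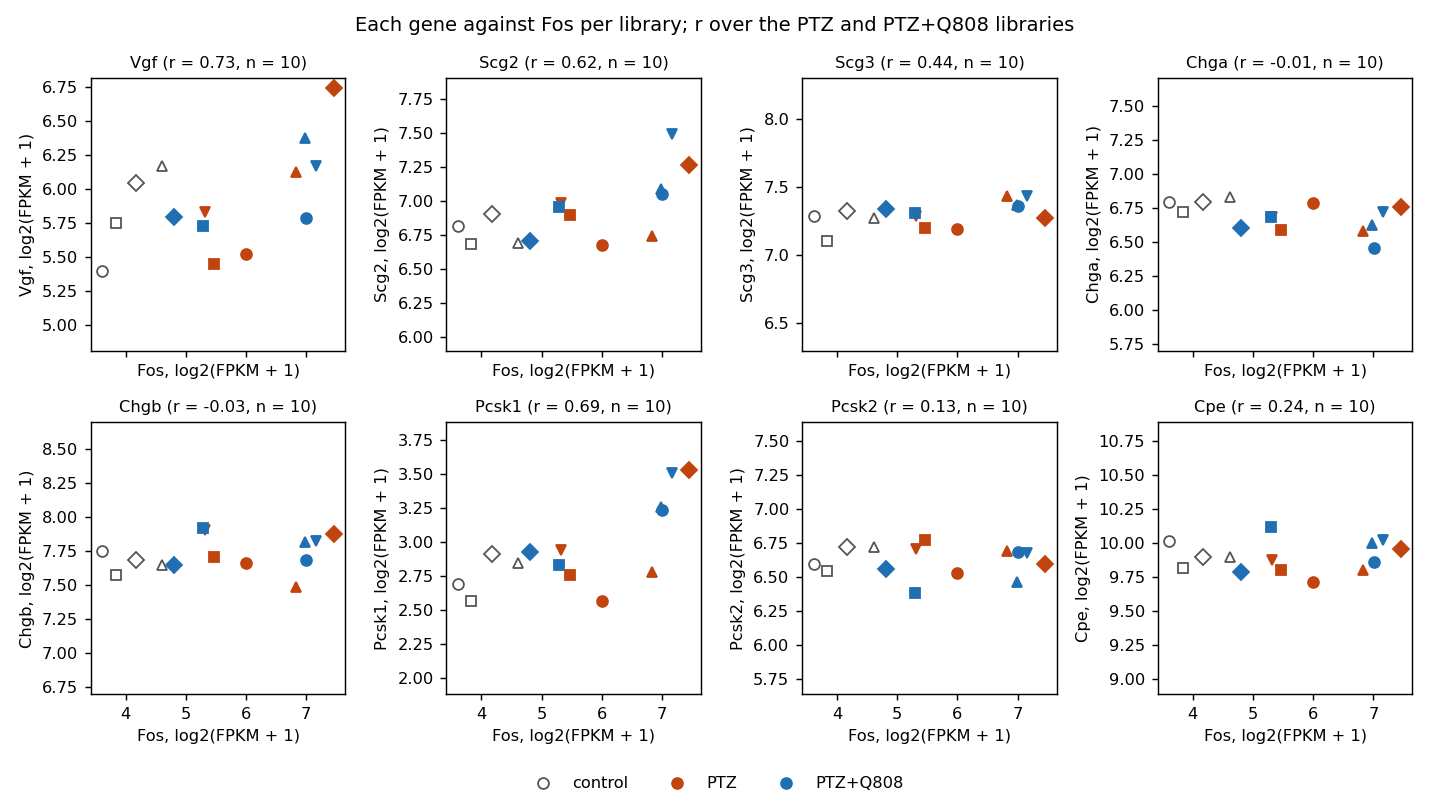
Log2(FPKM + 1) of each gene (y axes, each spanning the same log2 range) against that of Fos (x axis) per library, with open grey controls, red PTZ and blue PTZ+Q808 libraries. The r above each panel is over the 10 PTZ and PTZ+Q808 libraries: points climb to the right for Vgf (0.73), Pcsk1 (0.69) and Scg2 (0.62), and lie flat for Chga and Chgb. Within the 6 of these libraries that hold Y-linked transcripts r was -0.04 for Vgf.

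Scg2 and Pcsk1 were the pair that varied together most closely. Among 28 pairs of members over the 10 libraries, 22 had a positive r and 1 had an adjusted permutation p under 0.05: Scg2 with Pcsk1 (r = 0.89, permutation p = 0.00032, adjusted p = 0.00896, rho = 0.903, adjusted permutation p = 0.0218). It was 0.78 without the 2 libraries farthest from the median of Scg2. Within the 6 exposed libraries with Y-linked transcripts r was 0.69 (exact permutation p = 0.125, rho = 0.83, exact permutation p = 0.0583). Leaving out the 2 of them farthest from the median of Scg2 gave 0.96, over too few libraries to be read. With values centred on the class means over all 10 libraries r was 0.85. Vgf with Pcsk1 had r = 0.78 (adjusted permutation p = 0.104, rho = 0.818), and Chgb with Cpe had r = 0.74 (adjusted permutation p = 0.124, rho = 0.782). Pcsk1 with Pcsk2 had r = 0.06. The share of all genes with as high an r with Scg2 or Pcsk1 was not computed. Over the same 10 libraries the mean of 11 neuronal markers had r = 0.86 with Scg2 and 0.82 with Pcsk1. The closeness of Scg2 and Pcsk1 is thus not shown to be particular to these genes.

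The highest values of Scg2 and Pcsk1 fell in the same libraries. PTZ replicate 4 and PTZ+Q808 replicates 1, 3 and 5 had Pcsk1 at 8.43 to 10.6 FPKM, against at most 6.69 FPKM elsewhere. In those 4 libraries Scg2 was 132 to 179 FPKM and at most 126 FPKM elsewhere, and Fos was 126 to 175 FPKM and at most 113 FPKM elsewhere. PTZ replicate 3, with Fos at 113 FPKM, had Pcsk1 at 5.85 FPKM and Scg2 at 106 FPKM, both among the controls.

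Genes with the most similar profile over all 14 libraries were ranked by r of log2(FPKM + 1), as a description of libraries that share groups and depth. For Pcsk1 they included Bdnf (r = 0.95) and Zfand5 (0.93). Bdnf, which encodes a neurotrophin made as a precursor and released from dense core vesicles, was 22.2 FPKM in PTZ replicate 4 and 14.5, 17.2 and 19.5 FPKM in PTZ+Q808 replicates 1, 3 and 5. It was 3.22 to 5.74 FPKM in the other 10 libraries. For Scg2 the nearest genes were Zfand5 (0.95), Nrn1 (0.92) and Cisd2 (0.92), so that Zfand5 was shared with Pcsk1.

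For Vgf they were Sertad1 (0.89), Cry2 (0.88) and Eif2s3 (0.88). Eif2s3, the X-linked paralog of Eif2s3y, was 26.3 to 34.2 FPKM in the 8 libraries with Y-linked transcripts and 38.8 to 48.3 FPKM in the 6 without, so it follows the same split as Vgf. Scg3 was nearest to Mapk9 (0.83), Nr2f1 (0.80) and Ntm (0.77), and Chga to Zbtb12 (0.87), Zfp617 (0.87) and Lypla2 (0.87). Chgb was nearest to Tmeff1 (0.92), Wdr12 (0.91) and Ube2e3 (0.90). Pcsk2 was nearest to Ezh1 (0.86), Cpt1c (0.85) and Mmp17 (0.82), and Cpe to Gnas (0.90), Ndnl2 (0.89) and Ociad1 (0.87). Of the genes given here, Zfand5 alone was among the nearest to more than 1 member.

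The other genes of the pathway gave few calls. The list of processing partners held other convertases, carboxypeptidases, the amidating enzyme, the convertase chaperone Scg5 and proton pump subunits. Pcsk1n, also listed, was at 0.362 to 1.11 FPKM, too low to be tested. Of the 14 tested, 1 fell and 0 rose in PTZ+Q808 against control, where 0.934% of all genes fell. Their median log2 change was 0.01 against -0.02 over all genes. The gene that fell was Pcsk6, which encodes the convertase PACE4. It was 8.74, 10.4, 7.36 and 6.97 FPKM in control, 7.53, 7.24, 6.87, 6.40 and 7.27 FPKM in PTZ, and 5.70, 5.47, 5.15, 6.56 and 5.99 FPKM in PTZ+Q808. Control and PTZ+Q808 libraries did not overlap, and Pcsk6 fell by 0.46 on the log2 scale (SE 0.10, limma adjusted p = 0.030). This call was lost in 9 of 26 alternatives, among them leaving out control replicate 1 or 3 or PTZ+Q808 replicate 1, 3 or 5 (highest limma adjusted p = 0.144). Beside it, the mean log2 value of 7 oligodendrocyte markers was 7.97 to 8.90 in control, 8.01 to 8.59 in PTZ and 7.52 to 8.44 in PTZ+Q808, and its part was not tested. Scg5, the chaperone of PC2, had a log2 change of 0.12 (limma adjusted p = 0.421), and Atp6v1a, a proton pump subunit, 0.17 (limma adjusted p = 0.169).

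Of 26 tested genes of dense core vesicle formation and release, 1 rose and 0 fell in PTZ+Q808 against control, where 1.94% of all genes rose, with a median log2 change of 0.06. The gene was Vps41, which acts in vesicle biogenesis. It ran from 67.4 to 70.0 FPKM in the 4 controls, was 69.3, 87.6, 72.4, 83.4 and 85.4 FPKM in PTZ, and was 89.3, 96.3, 94.2, 82.5 and 87.5 FPKM in PTZ+Q808. The PTZ+Q808 libraries all lay above the controls, and Vps41 rose by 0.38 on the log2 scale (SE 0.07, limma adjusted p = 0.0215). The call was lost in 9 of 26 alternatives, among them leaving out control replicate 1, 3 or 4 or PTZ+Q808 replicate 1, 3 or 5 (highest limma adjusted p = 0.144). Vps41 was also called in the mean of PTZ and PTZ+Q808 against control (log2 change 0.29, limma adjusted p = 0.0487), in which 0.471% of all genes rose, and that call was lost in 17 of 25 alternatives, among them leaving out each of the 4 control libraries in turn. Syt4, a synaptotagmin of dense core vesicles, had a log2 change of 0.42 in PTZ+Q808 against control (limma adjusted p = 0.0647), and did not pass.

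Of 22 tested precursors that these enzymes can cut, 0 were called in any comparison. In PTZ+Q808 against control 18 of 22 had a positive log2 change, with a median of 0.22 against -0.02 over all genes. The smallest limma adjusted p were those of Vip (log2 change 0.52, adjusted p = 0.0752), Grp (0.54, adjusted p = 0.0958) and Bdnf (1.11, adjusted p = 0.177). In PTZ against control 13 of 22 were positive (median 0.12), and in PTZ+Q808 against PTZ 17 of 22 (median 0.12). Pomc was 74.7 FPKM in PTZ+Q808 replicate 3, the library with pituitary transcripts, and at most 3.15 FPKM elsewhere. Penk was 244 FPKM in control replicate 2, the library with striatal transcripts, and 16.8 to 66.3 FPKM elsewhere.

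As a marker of the stimulus, 18 activity-regulated transcription and signalling genes were tested. In PTZ+Q808 against control Dusp1, Npas4 and Fos rose, by 1.49, 2.54 and 2.19 on the log2 scale (limma adjusted p = 0.0226, 0.0377 and 0.0422). Of all genes, 1.94% rose there. All 18 were positive, with a median of 1.43 against -0.02 over all genes. In PTZ against control all 18 were also positive, with a median of 1.08, and 0 were called by limma (smallest adjusted p = 0.215, Dusp1). The calls for Dusp1, Npas4 and Fos in PTZ+Q808 against control were lost in 8, 13 and 14 of 26 alternatives. Each was lost without control replicate 1, control replicate 4, or PTZ+Q808 replicate 1, 3 or 5. In the mean of PTZ and PTZ+Q808 against control Dusp1 (1.47, limma adjusted p = 0.0226) and Npas4 (2.55, adjusted p = 0.0464) rose, as did 0.471% of all genes. Those calls were lost in 7 and 14 of 25 alternatives. The medians of the 8 granin and processing genes were 0.05 in PTZ against control, 0.07 in PTZ+Q808 against PTZ and 0.11 in PTZ+Q808 against control.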

How the data were processed

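Hippocampal RNA of 14 libraries had been sequenced after mRNA capture. The authors deposited FPKM per gene and sample. Per the submitters' processing notes, tools included HISAT2 and Bowtie2, HTSeq, StringTie and Cufflinks, DESeq, Trimmomatic and SAMtools, with no statement of which made the FPKM, and the genome build is not given in the sources used here. Groups were taken from the sample titles.

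The 12744 genes tested reached 1 FPKM in 4 or more libraries. Log2(FPKM + 1) of all 3 groups was fitted in limma 3.58.1 (R 4.3.3) with a mean-dependent prior and 11 residual degrees of freedom. Tests were two-sided, with Benjamini-Hochberg adjustment over all genes of a comparison and a threshold of 0.05. The pseudocount of 1 understates changes of low genes. Whole reads were recovered from the FPKM steps for 100% of tested genes (within 0.02 of a read), giving relative depths of 0.858 to 1.04.

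Correlations used permutation tests with 100000 resamples (numpy 2.4.6, pandas 2.3.3), and figures matplotlib 3.10.9. Scripts were tested on simulated data. RefSeq GRCr8 supplied promoter windows and names. The members and gene lists were chosen with earlier results of these data known. Named were all 8 members, called genes of each pathway list or otherwise up to 4 of smallest p, and the 3 genes most correlated with each member; 1 gene that met this rule is not reported here. Ratios, and the 4 libraries singled out by Pcsk1, were chosen after values were seen. Alternatives were another pseudocount, filter, scaling or model, omitted libraries, and, added after seeing the data, voom on the recovered reads, correlations centred on groups or on classes of Y-linked transcripts, within 1 class or without each library, and the relation with Fos over all genes. Libraries were classed by a mean of at least 1 FPKM over these transcripts.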

Additional observations from a re-analysis of the deposited data

How the results depend on the processing

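Across 26 alternatives the 8 genes kept their direction and side of the threshold in 797 of the values computed, reversed in 26, and passed in 1: Chga in PTZ+Q808 against control with weights per library (-0.20, limma adjusted p = 0.0491), which made 1 member called. Part of these values could not turn. Leaving out a library outside the comparison, changing the filter or fitting only the compared groups leaves a pairwise log2 change as it was. The counts of all genes called moved more. In PTZ against control, PTZ+Q808 against PTZ, PTZ+Q808 against control and the mean of both against control, limma called 1, 2, 190 and 40 genes with no filter. Fitting only the compared groups called 1 in PTZ against control and 197 in PTZ+Q808 against control, and voom called 1 in PTZ against control. In PTZ against control, PTZ+Q808 against control and the mean of both, a term for Y-linked transcripts called 8, 564 and 132 genes and weights per library 7, 1100 and 522. In the last pair of comparisons, leaving out control replicate 2 with PTZ+Q808 replicate 3 called 57 and 28, and leaving out the 3 libraries lowest in Ttr called 0 and 4. Causes were not tested.

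With each gene centred on its group mean, same-numbered libraries of different groups correlated between -0.28 and 0.14. Differently numbered libraries were not correlated for comparison, so whether the numbers pair samples was not settled. With the replicate block, limma called 0, 4 and 4 genes in PTZ against control, PTZ+Q808 against control and the mean of both, 0 members, and Pcsk2 in PTZ against control turned to -0.0059.

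Other reversals were these. Cpe in the mean of both against control was 0.00053 with median-of-ratios scaling, 0.032 with quantile normalization and 0.00051 without the libraries lowest in Ttr, which also gave Vgf -0.039 in PTZ+Q808 against PTZ. Leaving out control replicate 2 with PTZ+Q808 replicate 3 gave Scg3 -0.017 and Pcsk2 -0.018 in PTZ against control and Vgf -0.064 in PTZ+Q808 against PTZ. Leaving out 1 library at a time, members called ranged from 0 to 0 in all comparisons, and genes called from 1 to 5, 0 to 0, 17 to 673 and 2 to 149. Vgf ranged from -0.11 to 0.22 in PTZ against control, -0.085 to 0.24 in PTZ+Q808 against PTZ, -0.016 to 0.24 in PTZ+Q808 against control and -0.034 to 0.22 for the mean. Scg3 (-0.017 to 0.056) and Pcsk2 (-0.018 to 0.048) in PTZ against control, Chgb in PTZ+Q808 against PTZ (-0.0097 to 0.096) and Cpe for the mean (-0.041 to 0.023) also crossed 0. Centring on the classes of Y-linked transcripts turned the correlation with Fos to -0.048 for Scg3 and -0.057 for Cpe. Correlations with Fos without 1 library ranged from 0.64 to 0.81 for Vgf, 0.53 to 0.75 for Scg2, 0.60 to 0.80 for Pcsk1, 0.33 to 0.60 for Scg3, 0.11 to 0.62 for Cpe, -0.22 to 0.28 for Chga, -0.20 to 0.17 for Chgb and -0.13 to 0.31 for Pcsk2. Depth limited Pcsk1 most, with 425 reads in its lowest library.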
